A study of Mus musculus with 31 samples.

Results

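R98S clone 11 was compared with R98S clones 13 and 35 to see which transcripts belonged to 1 clone rather than to the mutation that the 3 clones carry in common. The members were the 9 total mRNA libraries of the R98S clones in the set matched to polysomal RNA sequencing, 3 of clone 11 and 6 of clones 13 and 35, out of 31 libraries in the series. All were grown from Ba/F3, an interleukin-3-dependent mouse lymphoid line, after retroviral transfer of a human RPL10 cDNA, either WT or R98S, and an shRNA against the mouse Rpl10 transcript, which the WT controls carry too. Each clone was started from a single-cell colony, so its libraries, numbered 1 to 3, came from 1 clone. Whether the numbers stand for separate cultures is not given in the sources used here. A p-value here measures the spread between such libraries and not between clones in general. For position, 8 total mRNA libraries of WT clones 28, 29 and 36 were used. The study had left out number 1 of clone 36, which in its principal component analysis grouped with the mutants. The WT ranges given here therefore lack that library. For direction, 8 polysomal libraries of the R98S clones were used, 2 of them of clone 11, with RNA pooled from fractions carrying at least 2 ribosomes.

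RPL10 joins the large ribosomal subunit late in its assembly, and R98S exchanges 1 of its residues, a change found in T-cell acute lymphoblastic leukemia. A line grown from 1 cell fixes whatever that cell happened to carry, including its active and silent genes, its chromosome content and the places where a retrovirus had integrated. A difference between single-cell clones of 1 genotype therefore need not depend on the genotype.

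Among the libraries used, 3 needed attention. In total mRNA, the number 2 libraries of clones 13 and 35 lay between the genotypes. On the first principal component of the 500 most variable genes they scored 7.31 and 8.92, the other 7 R98S libraries scored 25.3 to 41.5 and the 8 WT libraries scored -35.0 to -27.6. In polysomal RNA, the library labelled R98S clone 35 number 3 went against its label. Over 66 genes that separated clone 11 in total mRNA, it was nearer to the mean of clone 11 than to the mean of the other polysomal libraries of clones 13 and 35 at 89.4% of them, against 84.8% and 69.7% for the libraries of clone 11 itself and 9.09% to 34.8% for the others. It had 309 normalized reads of Il18, which was at 0 in the other clone 35 polysomal libraries, and no read of Mertk, which was at 96.5 and 85.6 in them. The polysomal tests are given with and without it.

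In total mRNA, 94 of 11104 genes with a mean of at least 10 normalized reads differed between clone 11 and clones 13 and 35 at an adjusted p under 0.1 (limma with the library number as block). That is 0.847% of the genes tested. Transcripts higher in clone 11 numbered 40 (0.36%), and 54 were lower (0.486%). The median size of the difference among the 94 was 1.47 on the log2 scale, against 0.16 over all genes tested, and 62 differed by more than 2-fold. Within each of the 3 library numbers the sign was the same for all 94, a pattern that 41.5% of all tested genes also showed. Without the number 2 libraries of clones 13 and 35 the same test called 13 of 11064 genes, or 0.117%, and 12 of these were among the 94, namely Il18, Pih1d1, Mertk, Tmem59l, Sh3rf1, Slc43a3, Itga4, Tex12, Slc17a7, Lama2, Fads6 and Depdc7; the sign was kept at all 92 that could still be tested. Single libraries moved the count as well, to 10 without clone 11 number 3 and to 200 without clone 13 number 3.

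Of the called genes, 5 lay in 2 short stretches of the genome, and their promoter sequences are shown because neighbouring genes there were called in the same direction. Other called genes had a called neighbour of the same direction too, such as Depdc7 and Tcp11l1, 9.62 kb apart (adjusted p = 0.0388 and 0.0564), and Cpa3 and Gyg, 60.3 kb apart (adjusted p = 0.0475 and 0.0804). These pairs lie on chromosomes 2 and 3, whose genes as a whole differed in the same directions (median log2 -0.16 and 0.25). On chromosome 9, Il18 (chr9:50554827-50581840, plus strand), the gene of the cytokine interleukin 18, lies against Bco2 (chr9:50533087-50555181, minus strand), which encodes a mitochondrial carotenoid-cleaving oxygenase, and its body holds Tex12 (chr9:50556819-50561325, minus strand), a component of the meiotic synaptonemal complex. On chromosome 7, Pih1d1 (chr7:45154303-45160065, plus strand), a subunit of the R2TP co-chaperone complex, lies 3.88 kb before Slc17a7 (chr7:45163949-45176142, plus strand), a vesicular glutamate transporter. Mertk (chr2:128698956-128802894, plus strand), a receptor tyrosine kinase that binds apoptotic cells through bridging ligands, is the contrasting case, with no read in clone 11 or WT total mRNA. Gene positions are from GENCODE on GRCm38. The sequences are the bases directly before each start site in the RefSeq table (GRCm38.p6), cut back to the part outside any annotated exon and written 5′ to 3′ along the gene's strand, with each CG dinucleotide in capitals. They cover chr9:50554450-50554699 for Il18, chr9:50555182-50555388 for Bco2, chr9:50561326-50561518 for Tex12, chr7:45154053-45154302 for Pih1d1, chr7:45163671-45163920 for Slc17a7 and chr2:128698665-128698914 for Mertk.
Il18: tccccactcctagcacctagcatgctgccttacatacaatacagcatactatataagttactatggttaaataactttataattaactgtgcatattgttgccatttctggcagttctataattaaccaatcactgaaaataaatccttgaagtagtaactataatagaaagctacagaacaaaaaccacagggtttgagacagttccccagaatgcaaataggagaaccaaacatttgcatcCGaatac
Bco2: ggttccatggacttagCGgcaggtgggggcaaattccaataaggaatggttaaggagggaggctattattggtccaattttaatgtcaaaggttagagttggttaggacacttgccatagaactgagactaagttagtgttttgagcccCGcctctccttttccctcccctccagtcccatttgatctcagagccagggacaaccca
Tex12: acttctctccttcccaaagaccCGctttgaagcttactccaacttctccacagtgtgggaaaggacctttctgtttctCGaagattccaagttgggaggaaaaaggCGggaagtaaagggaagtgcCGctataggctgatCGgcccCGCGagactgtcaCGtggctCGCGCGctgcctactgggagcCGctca
Pih1d1: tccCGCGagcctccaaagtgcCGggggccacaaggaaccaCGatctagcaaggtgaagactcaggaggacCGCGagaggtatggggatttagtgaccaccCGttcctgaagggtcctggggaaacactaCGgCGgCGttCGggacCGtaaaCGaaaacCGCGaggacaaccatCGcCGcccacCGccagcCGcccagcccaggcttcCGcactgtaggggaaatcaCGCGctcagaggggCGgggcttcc
Slc17a7: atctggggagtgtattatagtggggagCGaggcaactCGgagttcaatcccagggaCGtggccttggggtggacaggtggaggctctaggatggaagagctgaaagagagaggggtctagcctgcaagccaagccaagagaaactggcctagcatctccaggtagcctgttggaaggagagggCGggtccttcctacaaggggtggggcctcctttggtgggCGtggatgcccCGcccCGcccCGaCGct
Mertk: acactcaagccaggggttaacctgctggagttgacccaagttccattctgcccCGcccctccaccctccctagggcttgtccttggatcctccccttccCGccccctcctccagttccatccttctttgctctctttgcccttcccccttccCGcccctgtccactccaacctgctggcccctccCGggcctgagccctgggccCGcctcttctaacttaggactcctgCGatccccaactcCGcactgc

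These windows differed in CG content. The search was for the letters CG, which read the same on both strands. Over the 250 bases before the start the median of 32851 mouse promoter windows was 6. Il18 had 1, and 18.8% of windows had 1 or fewer. Bco2 had 2, a number or less that 29.0% of windows had. Tex12 had 20 and Pih1d1 had 23, which 17.9% and 13.3% of windows reached. The printed Tex12 stretch is shorter, at 193 bases, and holds 12 of its 20. Slc17a7 had 9 and Mertk had 7, close to the middle of the range. The 5 genes higher in clone 11 thus shared no single level of CG content.

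Il18 was the clearest marker of clone 11. In total mRNA it had 587, 594 and 970 normalized reads in the 3 clone 11 libraries. It had no read in any of the 6 libraries of clones 13 and 35, and at most 1.89 in the 8 WT libraries. Taking 3 reads per library as the floor that a count of 0 allows, clone 11 was at least 272-fold higher than clones 13 and 35 (adjusted p = 5.37e-06). In polysomal RNA clone 11 had 644 and 384, and clones 13 and 35 had 0 to 3.04 apart from the 309 in the library labelled clone 35 number 3. Among the R98S clones Il18 was thus a transcript of clone 11, and the clones that share its genotype lacked it in total mRNA.

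Bco2 beside Il18 and Tex12 within its body went the same way. Tex12 had 37.9, 37.9 and 119 in clone 11 and no read in any library of clones 13 and 35 or of WT, so clone 11 was at least 24.6-fold higher than clones 13 and 35 (adjusted p = 0.00256). Bco2 had 87.0, 87.5 and 110 in clone 11 against 0 to 7.07 in clones 13 and 35 and 0 to 8.73 in WT, a log2 difference of 5.28 ± 0.72 (SE; adjusted p = 0.0155). The clone 11 libraries did not overlap the others for either gene. The next tested genes outward did not pass the test. Pts, an enzyme of tetrahydrobiopterin synthesis that lies 26.1 kb from Il18, differed by 0.25 ± 0.22 (adjusted p = 0.705), and Sdhd, a subunit of mitochondrial complex II 14.5 kb beyond Il18, by 0.06 ± 0.10 (adjusted p = 0.866).

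Pih1d1 was expressed in every clone and was higher in clone 11. Its values in clone 11 were 2832, 2720 and 3361. In clone 13 they were 409, 441 and 309, in clone 35 they were 546, 375 and 570, and the 8 WT libraries ran from 304 over a median of 411 to 507. Clones 13 and 35 thus sat in or just above the WT range, and clone 11 was 6.83-fold higher than they were (log2 2.77 ± 0.20, adjusted p = 2.15e-04). In polysomal RNA clone 11 had 2051 and 2851, clones 13 and 35 had 384 to 623, and the library labelled clone 35 number 3 had 2794. Of the exonic bases of Pih1d1, 7.38% overlap Aldh16a1 on the opposite strand, and strand use in the counting is not given in the sources used here; Aldh16a1 itself differed by -0.37 ± 0.20 (adjusted p = 0.507). Downstream, Slc17a7 had 75.9, 70.4 and 49.6 in clone 11 and 0 to 1.56 in clones 13 and 35, with at most 2.19 in WT (adjusted p = 0.00256). Cd37, the next tested gene, 73.6 kb from Pih1d1, a tetraspanin of lymphoid cells, differed by -0.08 ± 0.13 (adjusted p = 0.854).

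Lama2, the laminin alpha 2 chain of basement membranes, was also near 0 outside clone 11. It had 132, 142 and 160 in clone 11, none in clone 13, 1.45 to 3.45 in clone 35 and at most 3.43 in WT, a log2 difference of 6.31 ± 0.63 (adjusted p = 0.00256). Mmp24, a membrane-anchored matrix metalloproteinase, had 89.2, 78.5 and 71.7 in clone 11. It had 4.01, 3.54 and 6.23 in clone 13, 16.7, 8.72 and 13.1 in clone 35, and 0 to 2.83 in WT. Its libraries did not overlap between clone 11, clone 35, clone 13 and WT, in falling order. The step from clone 13 to WT lay near the floor, with at most 3 reads in a WT library, so that part of the order is not firm. The difference of clone 11 from the other R98S clones was 3.23 ± 0.48 (adjusted p = 0.0255). Of its exonic bases, 13.6% overlap a gene on the opposite strand.

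Other transcripts were missing from clone 11 alone. Tmem59l, a Golgi transmembrane protein, had 0, 4.51 and 1.38 normalized reads in clone 11. It had 102, 141 and 88.0 in clone 13, 155, 144 and 120 in clone 35, and 92.6 to 185 in WT. The difference was -5.71 ± 0.40 on the log2 scale (adjusted p = 2.15e-04), and clones 13 and 35 did not pass the test against WT (log2 -0.24). Aqp9, an aquaglyceroporin, had no read in clone 11, 61.0 to 181 in clone 13, 15.9 to 64.0 in clone 35 and 46.2 to 1844 in WT, so clones 13 and 35 were at least 26.2-fold higher than clone 11 (adjusted p = 0.00807). Fads6, a fatty acid desaturase family member, had 2.23, 2.71 and 1.38 in clone 11 against 26.2 to 70.1 in clones 13 and 35 and 13.0 to 62.8 in WT (log2 -3.93 ± 0.38, adjusted p = 0.00256).

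Sh3rf1, a scaffold and E3 ubiquitin ligase of the JNK pathway, was ordered across all groups. Clone 11 had 1.12, 20.8 and 1.38, clone 13 had 103, 166 and 91.9, clone 35 had 141, 160 and 130, and WT had 198 to 274. The difference between clone 11 and clones 13 and 35 was -4.77 ± 0.48 (adjusted p = 0.00256), and clones 13 and 35 also differed from WT, by -0.90 (adjusted p = 0.058). The clone 11 library of number 2 stood above the other 2 of its clone. Slc43a3, a purine nucleobase transporter, had 587, 476 and 449 in clone 11, against 1452, 768 and 1439 in clone 13, 1766, 964 and 1261 in clone 35 and 761 to 1520 in WT (log2 -1.29 ± 0.16, adjusted p = 0.0113). For both genes the clone 11 libraries lay below all 14 others.

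**Figure D1:**
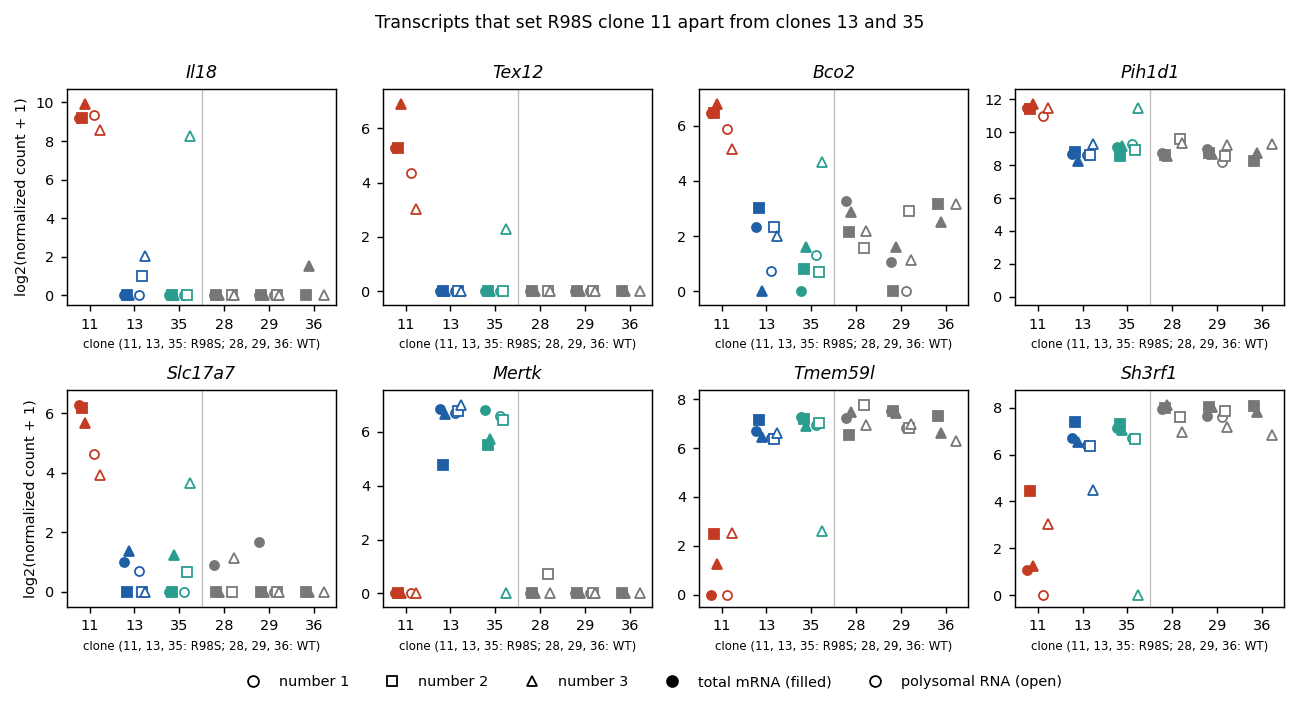
Values on the log2(normalized count + 1) scale for 8 genes, by clone, with each point 1 library, filled for total mRNA and open for polysomal RNA and shaped by library number. In total mRNA the Il18, Tex12, Bco2, Pih1d1 and Slc17a7 points of clone 11 stand above those of the other clones, and the open triangle of clone 35, the library labelled R98S clone 35 number 3, lies nearer clone 11 than the other clone 35 points in each panel.

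A smaller class went the other way, with clones 13 and 35 apart and clone 11 near WT. Mertk had no read in any clone 11 library or in any WT library. It had 115, 26.5 and 101 in clone 13 and 112, 44.3 and 52.4 in clone 35, so these were at least 22.2-fold higher than clone 11 and at least 23.2-fold higher than WT (log2 -6.06 ± 0.42 for clone 11 against clones 13 and 35, adjusted p = 2.15e-04). The values of number 2 were the lowest of each clone. Its neighbours did not pass the test: Anapc1, a subunit of the anaphase-promoting complex 11.6 kb before it, differed by -0.16 ± 0.17 (adjusted p = 0.749), and Tmem87b, 15.2 kb after it, by -0.12 ± 0.14 (adjusted p = 0.782).

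The members of this class were few. Btla, an inhibitory receptor of lymphocytes, had 52.1, 8.84 and 50.6 in clone 13, 20.3, 16.0 and 19.3 in clone 35, and at most 1.12 in clone 11 and 1.03 in WT (adjusted p = 0.0113). Svs2, a seminal vesicle protein, had 22.1 to 91.8 in clones 13 and 35 against 8.92, 0.902 and 1.38 in clone 11 and at most 3.43 in WT (adjusted p = 0.0129). Etv6, a transcriptional repressor needed in blood cell development, differed by degree, with 1691 to 2200 in clones 13 and 35, 1060 to 1563 in clone 11 and 1001 to 1581 in WT (log2 -0.53 ± 0.11, adjusted p = 0.0804). Fer1l4, a ferlin family gene, and Cav2, caveolin 2, also belonged here, with adjusted p of 0.0232 and 0.0530.

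Over the 94 called genes these positions were counted. The 3 clone 11 libraries lay beyond all 6 of clones 13 and 35 for 70 genes, a separation that 5.23% of all tested genes had. Clone 11 lay beyond every other library, WT included, for 45 genes, 23 above and 22 below (background 2.53%). Clones 13 and 35 lay beyond every other library for 8 genes, and in all 8 they were the higher side (background 0.225%). Over all tested genes this class held 17 with clones 13 and 35 higher and 8 with them lower. The minimum mean was taken over the R98S libraries, most of them of clones 13 and 35. Genes high in those clones therefore pass it more easily, and the direction is no result. For 7 of the 45, clones 13 and 35 lay wholly between clone 11 and WT (background 0.279%). Of the 94, 41 fell in none of these last 3 classes, 17 of them with clone 11 still beyond clones 13 and 35 and 24 with overlapping libraries. Without the number 2 libraries of clones 13 and 35 the last 3 classes held 9, 2 and 1 genes. With single libraries left out they held 9 to 85, 1 to 10 and 1 to 17, the highest each time without clone 13 number 3 and the lowest each time without clone 11 number 3, which numbers 1 and 2 of clone 11 matched for the last class. The shares among called genes follow partly from the call itself, since a called gene is one whose groups are far apart.

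Of the 7 genes with clones 13 and 35 in between, 4 were higher and 3 lower in clone 11. Bbs7, a subunit of the BBSome of primary cilia, had 5378, 5616 and 7365 in clone 11. It had 3226, 1937 and 3096 in clone 13, 3873, 2658 and 4907 in clone 35 and 0 to 4.39 in WT. All R98S libraries were thus far from WT, and clone 11 exceeded the other R98S clones by 0.94 ± 0.19 on the log2 scale (adjusted p = 0.0762). Spp1, the secreted phosphoprotein osteopontin, had 39.0, 31.6 and 24.8 in clone 11, 65.1 to 473 in clone 13, 222 to 762 in clone 35 and 1614 to 5162 in WT (log2 -3.16 ± 0.59, adjusted p = 0.0626), with 18.8% of its exonic bases shared with another annotated gene on its strand. Ahnak, a giant scaffold protein, had 7.81, 15.3 and 9.65 in clone 11, 25.5 to 158 in clones 13 and 35 and 185 to 872 in WT (log2 -2.05 ± 0.34, adjusted p = 0.0388). For Ahnak the values of 158 and 106 at number 2 of clones 13 and 35 stood above the 25.5 to 31.1 of their other libraries.

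Several further called genes of known function differed by degree, and none of those in this group kept its call without the number 2 libraries of clones 13 and 35 (adjusted p from 0.126 for Ptgs1 to 0.528 for Tbxas1). Their log2 differences then kept their sign and most of their size. Ptgs1 was at -1.11, Tbxas1 at -1.40, Padi4 at -0.89 and Mylk3 at -2.33 without those libraries. Ptgs1 and Tbxas1, the cyclooxygenase and thromboxane synthase that act in sequence on arachidonic acid, were both lower in clone 11: Ptgs1 had 1233 to 2012 in clone 11 and 2651 to 4275 in clones 13 and 35 (log2 -0.99 ± 0.13, adjusted p = 0.0129), and Tbxas1 differed by -1.36 ± 0.26 (adjusted p = 0.0678) with overlapping libraries. Padi2 and Padi4, which convert arginine residues to citrulline and lie near each other on chromosome 4, differed by -0.98 ± 0.15 and -1.07 ± 0.17 (adjusted p = 0.0286 for both), whereas Padi3 between them was at 1.01 ± 0.32 and did not pass (adjusted p = 0.281). Nos1, the neuronal nitric oxide synthase, and Mylk3, a myosin light chain kinase, differed by -2.36 ± 0.31 (adjusted p = 0.0129) and -2.82 ± 0.43 (adjusted p = 0.0286). Both were also lower in clones 13 and 35 than in WT, by -2.89 for Nos1 (adjusted p = 1.06e-05) and -1.62 for Mylk3 (adjusted p = 0.0085). Within clones 13 and 35 Nos1 was highest at number 2 of each, reaching 547 in clone 35, and was 41.1 to 137 in their other libraries. Its polysomal difference by limma was -0.71 with all 8 libraries (unadjusted p = 0.183). Without the library labelled R98S clone 35 number 3 it was -0.97 (unadjusted p = 0.0664). Npl, a lyase of sialic acid breakdown, had 1351 to 2216 in clone 11 and 443 to 974 in clones 13 and 35 (log2 1.48 ± 0.23, adjusted p = 0.0286). Gtsf1, a factor of the piRNA pathway, had 525 to 549 in clone 11 and 227 to 294 in clones 13 and 35, beside 247 to 336 in WT (log2 1.07 ± 0.13, adjusted p = 0.0113).

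**Figure D2:**
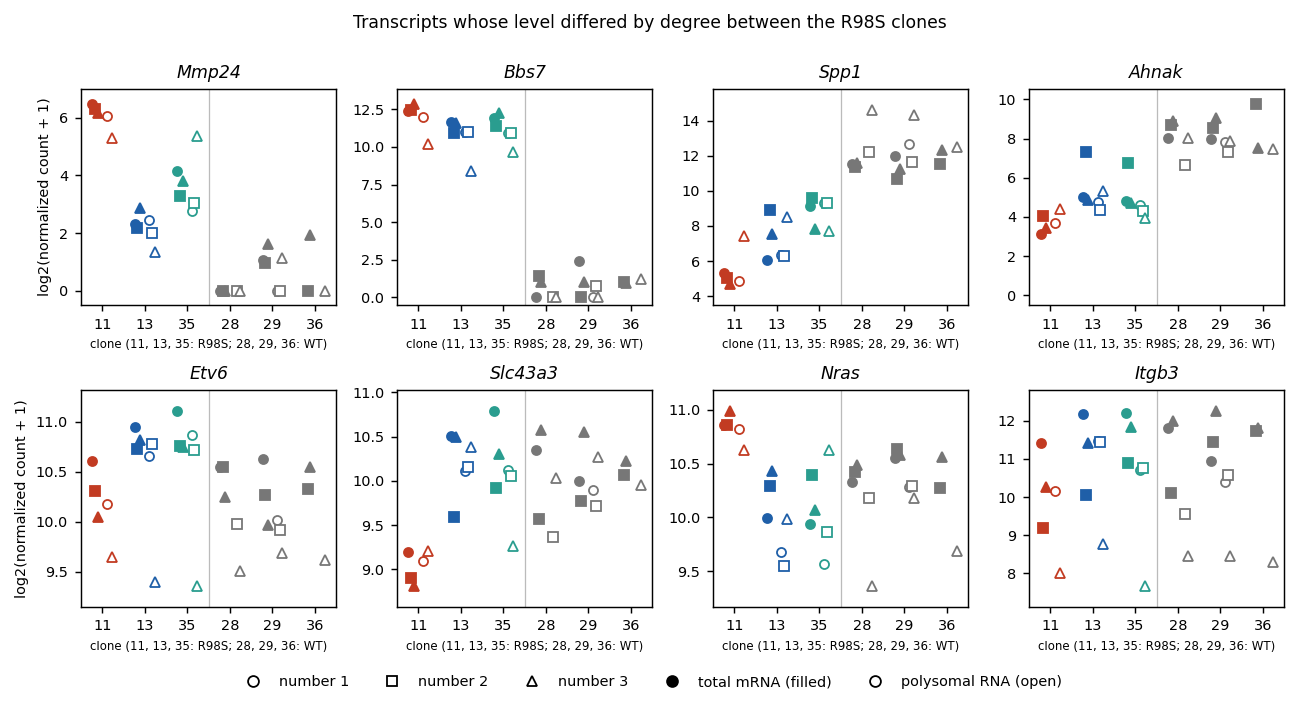
Values on the log2(normalized count + 1) scale for 8 genes whose levels differed by degree, drawn as in the plot of the sharply separated genes, with axes that do not all start at 0. In total mRNA Spp1 and Ahnak step from clone 11 over clones 13 and 35 to WT, and in polysomal RNA clone 11 overlaps clones 13 and 35 for both. Bbs7 separates all R98S libraries from WT, and the number 2 libraries of clones 13 and 35 (filled squares) stand apart for Ahnak.

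Of 23 gene lists drawn up for this cell type and mutation, 22 had a tested member and 5 had a called one, 8 genes in all. That is 1.1% of 730 tested list members, near the 0.847% over all genes. Integrin subunits differed in opposite directions: Itga4 was higher in clone 11 by 1.39 ± 0.27 (adjusted p = 0.0745) and Itgb3 lower (log2 -1.14 ± 0.19, adjusted p = 0.0455), the 2 called of 34 tested adhesion receptors. For both, the libraries overlapped. Itga4 had 4215 to 12392 in clone 11 and 1175 to 7878 in clones 13 and 35, and Itgb3 had 584 to 2746 and 1072 to 4693. Of 26 chemokine and lipid receptors, Gpr183, which follows oxysterols, was higher by 1.60 ± 0.27 (adjusted p = 0.0461) and Ccr7, the receptor that guides lymphocytes to lymph nodes, lower (log2 -1.94 ± 0.36, adjusted p = 0.0594). Gpr183 was also higher in clones 13 and 35 than in WT, by 5.41 (adjusted p = 8.38e-07), and its clone 11 libraries overlapped those of clones 13 and 35. Of 36 blood transcription factors, Lmo4 was higher by 1.31 ± 0.20 (adjusted p = 0.0286) and Etv6 lower. Lmo4 had 1206 to 4034 in clone 11, which overlapped the 660 to 2045 of clones 13 and 35. Cpa3, the mast cell carboxypeptidase, was 1 of 6 tested mast cell and basophil markers and was higher by 1.72 ± 0.30 (adjusted p = 0.0475). It had 498, 2228 and 1565 in clone 11, 192 to 839 in clones 13 and 35 and 14.3 to 297 in WT. Ifitm2, 1 of 39 tested interferon-stimulated genes, was higher by 0.61 ± 0.12 (adjusted p = 0.0740), with 40.9% of its exonic bases shared with another annotated gene on its strand. Of these 8 calls, Itga4 alone held without the number 2 libraries of clones 13 and 35 (adjusted p = 0.0108) and Ccr7 alone held without the block (adjusted p = 0.0807). With chromosome centring, an alternative added after the data were seen, Itgb3, Lmo4, Ifitm2 and Cpa3 no longer passed (adjusted p up to 0.182), although their log2 differences kept their sign and most of their size, such as 0.57 for Ifitm2 and 1.49 for Cpa3.

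The targeted gene and a gene that was higher in all R98S clones did not pass the test between them. For position against WT, 32.1% of 11133 genes were called for clone 11 and 29% for clones 13 and 35, in 1 fit with shared WT libraries. Rpl10, the gene that the shRNA targets, had 1642, 1280 and 1222 normalized reads in clone 11 and 901 to 2984 in clones 13 and 35, against 620 to 5715 in WT (log2 -0.02 ± 0.28, adjusted p = 0.987). The files do not separate the mouse transcript from the human cDNA. Psph, the phosphatase of the last step of serine synthesis, had 329, 250 and 222 in clone 11. It had 416, 136 and 402 in clone 13 and 452, 123 and 215 in clone 35, and 52.4 to 84.3 in WT. Clone 11 was 1.97 above WT and clones 13 and 35 1.92 above WT on the log2 scale (adjusted p = 3.59e-04 and 7.37e-05, from 1 fit in which both share the WT libraries), and the R98S clones differed by 0.05 ± 0.28 (adjusted p = 0.966). The low values at number 2 of clones 13 and 35 turned the sign, which was -0.40 without them. None of the 5 serine and glycine synthesis genes was called between the R98S clones in limma or edgeR, and none had an unadjusted p under 0.05. Their median was 0.02, with 3 higher and 2 lower, and turned to -0.23 with all 5 lower without those number 2 libraries.

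The other lists held no call. In these 17 lists, 78 of 601 tested genes (13%) had an unadjusted p under 0.05, near the 11.6% over all genes, and edgeR called 2, the adaptor Gab1 and the interferon gamma receptor chain Ifngr1. The median over all genes was 0.00. Immediate early genes, which answer within minutes to growth factor stimulation, had a median of -0.47, with 29 of 33 lower in clone 11, and -0.66 with 25 of 33 lower without the number 2 libraries of clones 13 and 35. DNA replication genes had a median of -0.13, with 53 of 74 lower, and -0.21 with 61 of 74 lower without those number 2 libraries. Cytosolic ribosomal proteins had a median of 0.11, with 62 of 81 higher. Cholesterol synthesis genes had a median of -0.17, with 20 of 23 lower, and oxidative phosphorylation genes 0.11, with 62 of 76 higher, which fell to 0.04 with 47 of 76 higher without those libraries. Granulocyte and monocyte markers had a median of -0.83 over 6 tested genes, which was -0.25 over 4 without those number 2 libraries. Erythroid and megakaryocyte markers had a median of -0.36 over 7, which turned to 0.26 over 5 without them. Among the lists with a call, mast cell and basophil markers had a median of 1.31 over 6. The summed level of the mast cell and basophil list, of which 1 of 11 members was at 0, was 37019 to 81479 normalized reads in clone 11 and 14645 to 49257 in clones 13 and 35. Which part culture state had in these list medians was not tested.

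Clone 11 and clones 13 and 35 also differed over whole chromosomes. Across the 481 tested genes of chromosome 3 the median log2 difference was 0.25, and 86.7% of them were higher in clone 11. On chromosomes 14 and 1 the medians were 0.22 and 0.21, with 84.0% and 83.2% of genes higher. On chromosomes 2 and 11 they were -0.16 and -0.15, and 19.9% and 20.8% of genes were higher. On chromosome 17 the median was 0.14, with 71.4% of genes higher. The median over all genes was 0.00. In windows of 20 Mb with at least 20 tested genes, the shift kept its sign along each of these chromosomes. The medians ran from 0.17 to 0.29 over 7 windows of chromosome 3, and from -0.19 to -0.11 over 10 windows of chromosome 2. On chromosome 17 they ran from 0.03 to 0.17 over 5 windows, so its shift was small in part of its length.

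Set against the mean of the WT libraries, the shifts belonged to different clones. On chromosome 3, clone 11 was near WT at -0.08, -0.08 and -0.06, and clones 13 and 35 were lower, at -0.42, -0.19 and -0.21 in clone 13 and at -0.37, -0.22 and -0.37 in clone 35. On chromosome 1, clone 11 was at 0.28, 0.27 and 0.34 and clone 13 at 0.24, 0.09 and 0.29, and clone 35 was between -0.06 and 0.01. Chromosome 14 repeated this, with clone 11 at 0.28 to 0.36, clone 13 at 0.10 to 0.29 and clone 35 at -0.04 to 0.00. On chromosome 2, clone 13 alone stood off, at 0.30, 0.14 and 0.29, and chromosome 11 followed it at 0.33, 0.16 and 0.28. On chromosome 17 clone 13 was low, at -0.10, -0.23 and -0.16. In clone 13 the number 2 library had the smallest shift on chromosomes 1, 2, 11 and 14. The clone 13 and clone 35 shares of a pooled difference were therefore unequal: against clone 13 alone the median of chromosome 2 was -0.28, and against clone 35 alone it was -0.05.

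**Figure D3:**
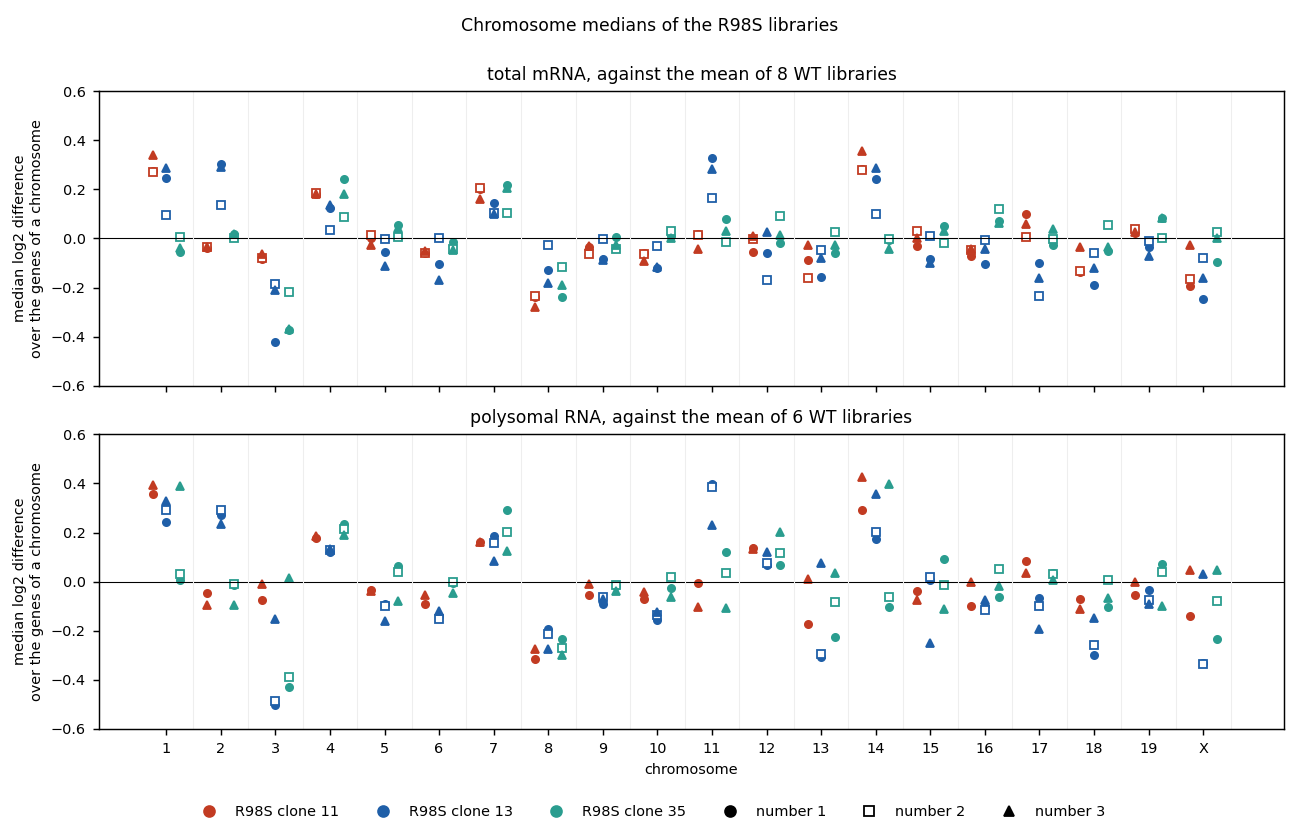
Median log2 difference of each R98S library from the mean of the WT libraries, over the tested genes of each chromosome, for total mRNA (upper) and polysomal RNA (lower), coloured by clone and shaped by library number. Chromosome 3 is low in clones 13 and 35 (-0.42 to -0.19 in total mRNA), chromosomes 1 and 14 are high in clones 11 and 13, and chromosomes 2 and 11 are high in clone 13 alone; in the lower panel the triangle of clone 35, the library that goes against its label, lies with clone 11 on chromosomes 1, 3 and 14.

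By chromosome, all 11 called genes of chromosome 3 and all 4 of chromosome 1 were higher in clone 11, 13 of the 16 on chromosome 2 were lower, and 11 of the 12 on chromosome 11 were lower. Called genes were 2.29% of those tested on chromosome 3 and 0.680% on chromosome 1. They were 1.87% on chromosome 2 and 1.30% on chromosome 11, against 0.847% over all genes. Nras, a small GTPase gene on chromosome 3, had 1848, 1851 and 2026 in clone 11 and 980 to 1380 in clones 13 and 35, with 1238 to 1591 in WT (log2 0.71 ± 0.12, adjusted p = 0.0461). When each library was centred on its chromosome medians, an alternative added after the data were seen, 63 genes were called and 55 of the 92 that could be tested remained. None of the 11 calls of chromosome 3 was among them, and 8 of 16 on chromosome 2 and 5 of 12 on chromosome 11 were. Nras was then at 0.48 (adjusted p = 0.105), and other chromosome 3 genes kept more of their size, with Cpa3 at 1.49 and Bbs7 at 0.71. Il18, Pih1d1, Mertk, Tmem59l, Sh3rf1 and Slc43a3 stayed called. Chromosome content was not measured here.

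Polysomal RNA gave the direction of the calls a second look, in libraries the total mRNA test had not used. The study matched them to total mRNA libraries of the same clones, so a shared sign does not count as independent evidence. With all 8 libraries none of 10721 genes was called by limma (0%, smallest adjusted p = 0.979) or edgeR, 4 were called by DESeq2, and 198 had an unadjusted p under 0.05. Of the 94 genes 88 could be tested, and 85 of them (96.6%) had the same sign as in total mRNA, against 62.2% of the 10627 genes tested in both. Without the library labelled R98S clone 35 number 3, limma called 11 of 10707 genes (0.103%), 4 higher and 7 lower in clone 11, and all 11 were among the 94. That library was singled out over 66 of these same genes, so the counts without it are a description and no independent support. The same sign was again seen at 85 of 88, and the clone 11 libraries lay beyond the others in the same direction for 47 of the 88, against 8.56% of all genes tested in either direction. With that library the number was 17 of 88, against 2.33%.

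Some of the markers named above were among the genes called in polysomal RNA without that library. Il18 differed by 8.15 ± 0.79 (adjusted p = 0.00502), Pih1d1 by 2.13 ± 0.26 (adjusted p = 0.0165), Mertk by -6.80 ± 0.40 (adjusted p = 1.53e-04) and Tmem59l by -5.58 ± 0.57 (adjusted p = 0.00640). With all 8 libraries the differences were 6.39 for Il18, 1.59 for Pih1d1, -5.08 for Mertk and -4.39 for Tmem59l, each with an adjusted p of 0.979. Aqp9, Btla, Car5b, Itga4, Npl, Tbxas1 and 1700101E01Rik were also called. Sh3rf1 differed by -4.38 ± 0.90 and did not pass (adjusted p = 0.230), and by -2.90 with all 8 libraries. Without that library, the 3 genes whose sign differed between total and polysomal RNA were Vezf1, Ptprj and Tlr9, named here after their values were seen.

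**Figure D4:**
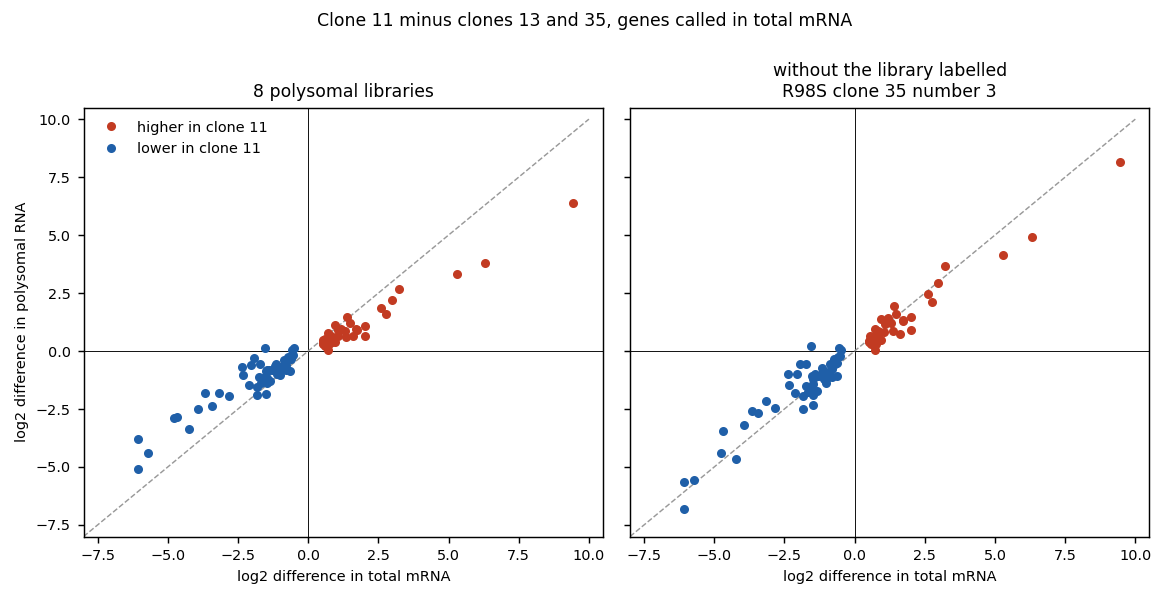
Log2 difference of clone 11 from clones 13 and 35 in total mRNA (horizontal) and polysomal RNA (vertical) for the 88 called genes tested in both, with all 8 polysomal libraries (left) and without the library labelled R98S clone 35 number 3 (right); the dashed line marks equal differences. In both panels 85 of the 88 points share their sign. The genes were chosen by their total mRNA difference, so a smaller polysomal one is no result.

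Taken by pairs of clones, with 3 libraries each and the same test, clones 11 and 13 differed at 151 of 11089 genes (1.36%), clones 11 and 35 at 739 of 11078 (6.67%) and clones 13 and 35 at 61 of 11129 (0.548%). WT clones 28 and 29 differed at 3 of 10984 (0.0273%), a count that was 0 to 763 with single libraries left out and 763 without clone 29 number 1. The pairs share libraries and the number 2 libraries of clones 13 and 35 lie together, so the counts do not rank the clones: without number 2 they were 247, 1364 and 362. Correlations of log2 values over the tested genes, given as a description, had a median of 0.976 within a clone over 9 pairs, 0.958 between clone 11 and the other R98S clones over 18 pairs and 0.952 between clones 13 and 35 over 9 pairs.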

How the data were processed

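Total and polysomal mRNA of Ba/F3 clones was sequenced from stranded poly(A) libraries. Per the labels and the study's methods, the authors removed rRNA and tRNA reads with Bowtie2, aligned to mm10 (GRCm38) with TopHat2 2.0.11 and counted exonic reads. Annotation and strand use are not given in the sources used here. The deposited values are a signal: gene counts divided by DESeq2 size factors. All values were whole reads, within 0.1 of a read, after the size factor was recovered. Recovered depth was 11471068 to 22059792 reads in the total R98S libraries, 8831180 to 20754046 in the polysomal ones and 9338671 to 17827021 in total WT.

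Clone 11 was compared with clones 13 and 35 on log2(value + 1) by limma 3.58.1 (R 4.3.3) with trend, library number as block, a minimum mean value of 10, and calls at a Benjamini-Hochberg adjusted p under 0.1. Deviations of same-numbered libraries correlated at 0.56, 0.41 and 0.36 in total mRNA. Polysomal number 2 is missing for clone 11, so the number 2 libraries enter that comparison only through the estimate of the spread. Without the number 2 libraries of clones 13 and 35, clone 11 number 2 stands alone in its block. edgeR 4.0.16 and DESeq2 1.42.0 on recovered reads, other scalings, filters, pseudocounts and left-out libraries were alternatives. Fold changes on this scale understate low genes. The script was tested on simulated data. The comparison and gene lists were chosen with earlier results of these data known. The rule for named genes took Rpl10 and Psph, up to 12 genes per direction by size (mean at least 50, called with and without those number 2 libraries, clone 11 not overlapping, same polysomal sign), up to 5 per direction of each position class on the same terms, and up to 3 called members of each list: this gave Rpl10, Psph, Il18, Pih1d1, Mertk, Tmem59l, Sh3rf1, Slc43a3, Itgb3, Itga4, Gpr183, Ccr7, Lmo4, Etv6, Ifitm2 and Cpa3. All other called genes named were chosen after their values were seen.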

Additional observations from a re-analysis of the deposited data

Results flagged for a closer look

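In 132 groups of 4 to 10 libraries of the named genes, 22 held a library far from the rest, where chance gives about 1 in 20, or 7, for independent groups. The groups here share libraries, and most genes were named for differing between the clones, so the 7 is no fair baseline. The measure is the gap to the nearest library over the range of the group, on the log2(value + 1) scale.

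Of the 22, 15 came from the polysomal library labelled R98S clone 35 number 3. It was the highest of clones 13 and 35 for Il18 (0.757), Tex12 (1.0), Slc17a7 (0.804), Pih1d1 (0.756), Lama2 (0.741) and Lmo4 (0.663). It was the lowest for Mertk (0.921), Tbxas1 (0.889), Tmem59l (0.855), Btla (0.763), Slc43a3 (0.707), Aqp9 (0.675), Ptgs1 (0.672), Fads6 (0.67) and Sh3rf1 (0.665). In each of these genes it lay on the side of clone 11.

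In total mRNA of clones 13 and 35, clone 13 number 2 was highest for Gpr183 (0.714) and clone 35 number 3 lowest for Ifitm2 (0.666). In polysomal RNA, clone 35 number 2 was highest for Cav2 (0.677). Among WT total mRNA libraries, Il18 (1.0, clone 36 number 3), Btla (1.0, clone 29 number 3) and Cav2 (1.0, clone 28 number 1) each had reads in 1 library alone. These flags rest on 2, 1 and 1 reads. Rpl10 was highest in clone 29 number 1 (0.531).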

How the results depend on the processing

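Il18, Pih1d1, Mertk, Tmem59l, Sh3rf1, Fads6, Lama2 and Slc17a7 stayed called in every total mRNA setting that tested them. In polysomal RNA with all 8 libraries, limma called none of them. Rpl10 and Psph, not called in any, changed sign: Rpl10 was 0.0901 without the number 2 libraries of clones 13 and 35, 0.12 against clone 13 alone, 0.0211 with chromosome centring and -0.20 to 0.19 with single libraries left out, and Psph was -0.40, -0.11 against clone 13 alone, and -0.40 to 0.27. The 94 calls in total mRNA became 13 without those number 2 libraries, 40 with no replicate block, 57 at a mean of at least 50, 348 by DESeq2, 151 against clone 13 alone and 739 against clone 35 alone, and 10 to 200 with single libraries left out. In the same settings (without number 2, no replicate block, mean of at least 50) clone 11 apart numbered 9, 29 and 28, clones 13 and 35 apart 2, 5 and 1 (5 by edgeR) and clones 13 and 35 between 1, 4 and 4. With single libraries left out these were 9 to 85, 1 to 10 and 1 to 17.

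In polysomal RNA DESeq2 called 4, against clone 13 alone 224 and against clone 35 alone 2, and single libraries left out gave 0 to 11. Without the library labelled R98S clone 35 number 3, edgeR called 19, DESeq2 77, no replicate block 6, also without number 2 of clones 13 and 35 53, and numbers 1 and 2 alone gave 3. For clones 11 and 13, no block gave 42, no number 2 247 and a mean of at least 50 gave 30 (29 to 961 with single libraries left out). For 11 and 35 no block gave 102 and no number 2 1364 (384 to 1383), and for 13 and 35 the 3 settings gave 34, 362 and 20 (0 to 334). WT clones 28 and 29 gave 0 to 763. Chromosome 2 was -0.284 against clone 13 alone and -0.0473 against clone 35 alone, -0.20 to -0.12 with single libraries left out, and chromosome 3 0.20 to 0.29. Against WT the calls ran from 2038 to 3802 for clone 11 and from 2679 to 3488 for clones 13 and 35. The cause of these changes was not tested.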
